A study of Homo sapiens with 12 samples.

Results

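HPB-ALL is a human T-cell acute lymphoblastic leukaemia (T-ALL) line, and its KDM2B peak list holds 12765 of the 79473 peaks in the 7 lists of the study. Every peak of that list was kept. Each list comes from 1 chromatin immunoprecipitation and sequencing (ChIP-seq) library of 1 leukaemia line, all grown in IMDM medium with serum and precipitated with the same commercial KDM2B antibody; no genetic change, treatment or time point is listed. The other T-ALL lines are DND41 (14944 peaks), JURKAT (14839) and SIL-ALL (15304). The non-T lines are K562, a chronic myeloid leukaemia line taken at blast crisis (5942 peaks), and the B-cell precursor lines REH (8146) and SUP-B15 (7533). These lineages are background knowledge of the named lines and are not in the labels, and peak lists carry no expression by which the identity of a line could be checked. With 1 library a line there was no replicate, and no line was tested against another. An exact permutation test of 1 line against 6 cannot give a p below 0.143.

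KDM2B removes methyl groups from histone H3 and recognises unmethylated CpG dinucleotides through its CXXC domain. It brings the variant Polycomb complex PRC1.1, with PCGF1, BCOR, RNF2 and USP7, to CpG islands, where the complex adds ubiquitin to histone H2A. In T-ALL, KDM2B has been studied as a gene that supports the growth of leukaemic cells, and many of its sites lie at promoters of housekeeping and developmental genes. HPB-ALL is known as a line with an activating NOTCH1 mutation and an abnormal TLX3 locus, and DND41 is known for the same pair of features.

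The HPB-ALL peaks were short and often lay side by side. Their median width was 253 bp (quartiles 183 and 386 bp, range 85 to 4123 bp), they covered 4.34 Mb, and 400 of them (3.13%) were 1 kb or wider. Joining neighbours up to 500 bp apart turned the list into 8052 clusters. Of these, 3056 clusters held several peaks and together 7769 peaks, 60.9% of the list, a share near the 61.2% of JURKAT and under the 64.8% of SIL-ALL and 69.8% of DND41. The cluster with the most peaks held 12 in 17q25.3 (hg19, chromosome 17, 79369146 to 79375860), and the next held 11 in 16q24.1 (chromosome 16, 85643692 to 85649864). Each peak carries the authors' own score, which ran from 80 to 3176.42 with a median of 136.22 and rose with peak width (Spearman's rho 0.914 across peaks, a description). Because the lists had different lowest scores (50 in JURKAT and the 3 non-T lists, 60 in DND41, 80 in HPB-ALL and SIL-ALL), scores are given below as percentiles within a list, where 100 is the highest peak.

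HPB-ALL shared about as many of its sites with any of the other T-ALL lines. At an overlap of at least 1 bp, 55.6% of its peaks (95% Wilson interval 54.7 to 56.5%) overlapped a SIL-ALL peak, 53.6% (52.7 to 54.5%) a DND41 peak and 50.8% (49.9 to 51.7%) a JURKAT peak. The reverse shares were 47.5% of the SIL-ALL list, 50.7% of the DND41 list and 47.7% of the JURKAT list. The 3 shares lay close together, with JURKAT the lowest as a share of HPB-ALL and SIL-ALL the lowest as a share of the other line's list. Asking for 50% reciprocal overlap brought the shares down to 24.6% for SIL-ALL, 23.298% for DND41 and 23.9% for JURKAT, so many of the shared peaks overlapped in part only. The shorter non-T lists overlapped fewer HPB-ALL peaks: 29.1% for SUP-B15, 26.2% for K562 and 20.7% for REH. As shares of their own lists these overlaps were 45.6%, 43.6% and 34.5%, so list length enters the first set of numbers. All intervals here cover counting error only, since sequencing depth is unknown.

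The most widely shared sites were the widest and highest-scored ones. Of the 12765 peaks, 2891 (22.6%) overlapped no other T-ALL list, 2992 (23.4%) exactly 1, 3214 (25.2%) exactly 2 and 3668 (28.7%) all 3. The median percentile climbed over these classes from 29.2 through 40.4 and 53.8 to 76.7, and the median width from 193 through 225 and 261 to 395 bp. Overlap with at least 1 non-T list climbed with them, from 19.7% through 34.29% and 52.7% to 75.1%. A total of 640 peaks (5.01%) overlapped all 6 other lists, and these had a median percentile of 92.3 and a median width of 669 bp. A further 4397 peaks (34.4%) overlapped 1 or more T-ALL lists and no non-T list, and 569 (4.46%) overlapped non-T lists only.

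**Figure D1:**
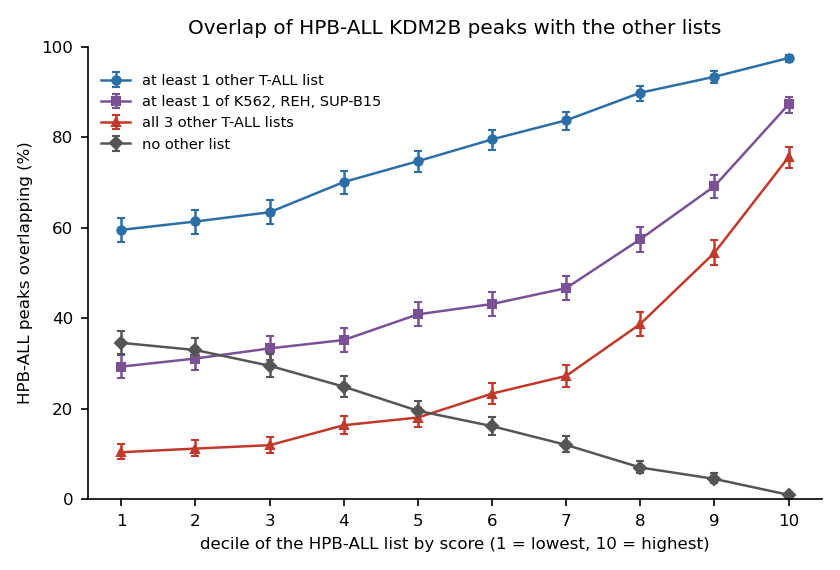
Share of HPB-ALL peaks (percent, y axis) that overlapped other lists, by decile of the HPB-ALL score from lowest to highest (x axis); vertical bars are 95% Wilson intervals for counting error. The share in all 3 other T-ALL lists climbs from 10.4% in the lowest decile to 75.6% in the highest, while the share in no other list falls from 34.6% to 0.94%.

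Across deciles of the score, overlap with any other T-ALL list went from 59.5% in the lowest to 97.6% in the highest, and overlap with all 6 other lists from 0.314% to 28.7%. Width gave the same picture. Of peaks from 150 to 200 bp, 32.3% overlapped no other list, and of peaks of 1000 bp or more, 0.5% did. A low-scored HPB-ALL peak was thus shared far less often than a high-scored one, and score and width cannot be told apart here because they rise together.

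Peaks found in HPB-ALL alone made up 2322 of 12765 (18.2%, interval 17.5 to 18.9%), which is also the background share for every count of such peaks below. The same measure was 18.3% in DND41, 19.9% in JURKAT and 22.9% in SIL-ALL, so HPB-ALL had no larger share of its own sites than the other T-ALL lines. The HPB-ALL share depended on the matching, at 9.61% when a distance of up to 500 bp counted as overlap and 43.9% with 50% reciprocal overlap. These peaks were weak and narrow (median percentile 27.9, median width 188 bp). Of them 1095 (47.2%) lay within 500 bp of a peak of another list, with a median distance of 644 bp, and 220 (9.47%) lay more than 100 kb away. Many of the peaks called in HPB-ALL alone therefore sat beside a site called in another line.

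A few of the sites of HPB-ALL alone were high in its list. By the rule for named regions (the highest best percentile in each class) these were in 1p36.22 (chromosome 1, 9788387 to 9789289, score 1031.9, percentile 98.4), 16p11.2 (chromosome 16, 30596444 to 30597743, percentile 97.6), 10p12.31 (chromosome 10, 22540682 to 22541772, percentile 95.4), 17q11.2 (chromosome 17, 27044525 to 27045375, percentile 94.2) and 11p14.3 (chromosome 11, 22214523 to 22215312, percentile 94.0). None of the 6 other lists held a peak overlapping these 5 regions. No gene annotation of hg19 was used here, so positions are given with their band and no peak is assigned to a gene.

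When peaks of all 7 lists that overlapped were merged, HPB-ALL had a peak in 9544 of 29071 regions. It was alone in 2322 of them. It shared 498 with JURKAT alone, 493 with SIL-ALL alone and 399 with DND41 alone, against 87 with SUP-B15 alone, 79 with REH alone and 59 with K562 alone. Sharing with 1 line alone was thus most frequent with T-ALL lines, whose lists are also longer, and DND41, the other line known for an abnormal TLX3 locus, was the least frequent of the 3. The highest HPB-ALL region with DND41 as the only other T-ALL line lay in 15q25.2 (chromosome 15, 85176356 to 85177754) at percentile 99.7 in HPB-ALL and 68.3 in DND41, and also held peaks of K562, REH and SUP-B15. With JURKAT it lay in 12p11.21 (chromosome 12, 31742595 to 31744443) at percentile 99.4 in HPB-ALL and 96.6 in JURKAT. With SIL-ALL it lay in 7p21.2 (chromosome 7, 16460321 to 16461422) at percentile 98.1 in HPB-ALL and 38.6 in SIL-ALL, and no other list had a peak there.

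Another 279 regions held HPB-ALL and non-T peaks with no other T-ALL list. The 3 highest were each shared with SUP-B15 and no further line. They lay in 16q21 (chromosome 16, 66612531 to 66613763; percentile 98.8 in HPB-ALL, 87.5 in SUP-B15), 5p12 (chromosome 5, 42951361 to 42952523; 98.7 and 55.2) and 15q22.31 (chromosome 15, 65115816 to 65116810; 97.8 and 73.4).

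Most of the highest-scored HPB-ALL peaks were shared by all 4 T-ALL lines. A total of 3073 regions held all 4, of which 655 held no non-T peak and 709 held all 7 lines. The highest score in HPB-ALL was in 9p24.3 (chromosome 9, 2015546 to 2018693, score 3176.4), which stood at percentile 97.7 in DND41 and above 99.9 in JURKAT but at 77.4 in SIL-ALL. Next came 16q22.1 (chromosome 16, 67062296 to 67064481), the band of CBFB, the partner subunit of the RUNX factors, at percentile 97.5 in DND41, 98.6 in JURKAT and 99.1 in SIL-ALL. The third, in 16p11.2 (chromosome 16, 30668770 to 30672892), was the widest HPB-ALL peak at 4123 bp and stood above percentile 99.9 in all 7 lists. The next highest lay in 21p11.2 (chromosome 21, 9825451 to 9827610) and 22q13.33 (chromosome 22, 50353574 to 50357341). A peak in 9q22.2 (chromosome 9, 92219674 to 92221909) had the same score as the last 3, 3100, and overlapped DND41, JURKAT, REH and SUP-B15 but not SIL-ALL. It was chosen after its values were seen. The score 3100 was also the highest in JURKAT (4 peaks) and SIL-ALL (14 peaks). The order among HPB-ALL peaks tied at that score therefore carries no meaning.

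HPB-ALL departed from the other T-ALL lines on a few chromosome arms. Of 41 arms with enough peaks (20 or more in the 4 T-ALL lists together), 3 (7.32%) had a share of HPB-ALL peaks at least 1.5-fold under the median share of the other T-ALL lists, and 1 (2.44%) had a share at least 1.5-fold above it. The lower arms were 3p, 16p and 16q, and the higher arm was 9p. By the same rule DND41 had no arm in either direction, JURKAT had 2 lower and none higher, and SIL-ALL had 1 lower and 2 higher. The median ratio over the 41 arms was 1.06.

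Arm 3p held 60 HPB-ALL peaks against 418 in DND41, 405 in JURKAT and 349 in SIL-ALL. K562 had 125 there, REH 82 and SUP-B15 173. As a share of the list this was 0.470% (0.365 to 0.605%) against a median of 2.73% in the other T-ALL lines, a ratio of 0.172, and 0.0637 with equal lists of the 5942 highest peaks or 0.0677 when every list was limited to its peaks from the median score up. HPB-ALL thus had the fewest 3p peaks of all 7 lines, although its list is longer than each non-T list. The long arm of the same chromosome did not show this, with 427 peaks in HPB-ALL against 431, 465 and 475 in DND41, JURKAT and SIL-ALL, a ratio of 1.08.

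Arm 16p held 167 HPB-ALL peaks against 416 in DND41, 300 in JURKAT and 430 in SIL-ALL, a ratio of 0.47. Arm 16q held 215 against 387, 334 and 406, a ratio of 0.65. On both arms HPB-ALL was lowest of the T-ALL lines. The 16q ratio lay close to the 1.5-fold limit, and its call was lost when DND41 (0.69) or SIL-ALL (0.70) was left out. Arm 9p held 148 HPB-ALL peaks against 102 in DND41, 128 in JURKAT and 64 in SIL-ALL, a ratio of 1.70, which was 1.501, just past the limit, without SIL-ALL. K562 had 16 there, REH 56 and SUP-B15 52. Of the 148 peaks, 47 (31.8%) were in no other list, above the 18.2% of the whole list. Of the 60 on 3p, 1 (1.67%) was. Input signal and DNA copy number were not used here, so whether fewer or more copies of a segment moved with these counts was not tested.

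**Figure D2:**
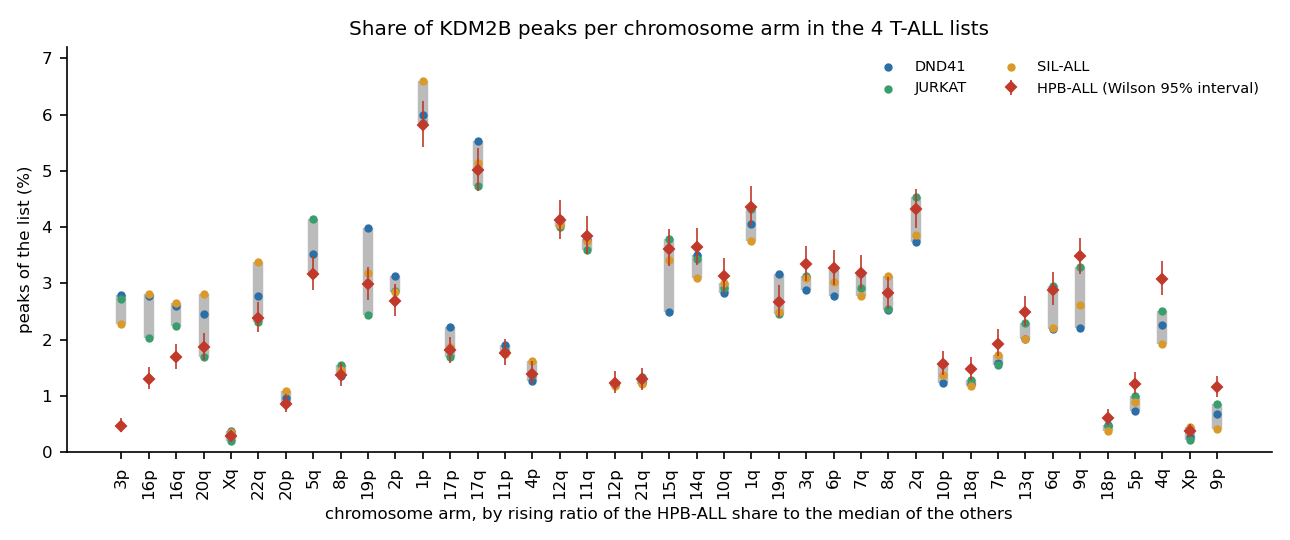
Share of each KDM2B list (percent, y axis) on each chromosome arm (x axis, by rising ratio of HPB-ALL to the other T-ALL lines), 1 point per T-ALL line; grey bars span the 3 other lines and vertical lines on HPB-ALL are 95% Wilson intervals for counting error. HPB-ALL lies under the other T-ALL lines on 3p (0.470%), 16p (1.31%) and 16q (1.68%) and above them on 9p (1.16%).

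The few 3p peaks of HPB-ALL were also weak. Their median percentile was 26.7 and their median width 158.5 bp, and 49 of the 60 lay under the list median. In the other T-ALL lists the median percentile of 3p peaks was 47.6 (DND41), 46.5 (JURKAT) and 49.99 (SIL-ALL). A single 3p peak of HPB-ALL was in the top decile of its list, against 36 in DND41, 32 in JURKAT and 30 in SIL-ALL. It lay in 3p14.3 (chromosome 3, 58223421 to 58224326, percentile 98.4) and overlapped a peak in all 6 other lists. The next highest lay in 3p14.1 (chromosome 3, 67049006 to 67049340) at percentile 82.7, and 6 peaks in all were above percentile 60.

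Bands of 3p were low along most of the arm. In 3p21.31, the gene-dense band of the histone methyltransferase SETD2, HPB-ALL had 9 peaks against 88 in DND41, 86 in JURKAT and 82 in SIL-ALL (K562 18, REH 4, SUP-B15 30). In 3p24.3, the band of the T-lineage chromatin organizer SATB1, it had 4 against 26 in each of the other T-ALL lists. In 3p25.3, the band of the tumour suppressor VHL, it had 1 against 27, 18 and 18. REH was also low in 3p21.31, so a low count there was not particular to HPB-ALL among all 7 lines. Of the 7 bands listed for genes of 3p, 6 were lower in HPB-ALL by the 1.5-fold rule, none was higher, and 1 (3p14.2, FHIT) had too few peaks to assess. Over all 606 bands with enough peaks, 70 (11.6%) were lower and 106 (17.5%) were higher by that rule. These bands were listed with the low 3p count known, so their number is a description.

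On chromosome 16 the deficit was not even along the arm. In 16p13.3, the terminal band, HPB-ALL had 24 peaks against 219 in DND41, 158 in JURKAT and 263 in SIL-ALL. In 16p13.2, the band of the PRC1.1 subunit USP7, it had 1 against 16, 12 and 12. Toward the centromere the counts met those of the other lines: 16p12.2 had 28 peaks against 20, 24 and 21, and 16p11.2 had 73 against 106, 56 and 91. On the long arm, 16q12.2 had 4 against 42, 25 and 23, and 16q22.1 had 26 against 98, 68 and 94.

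**Figure D3:**
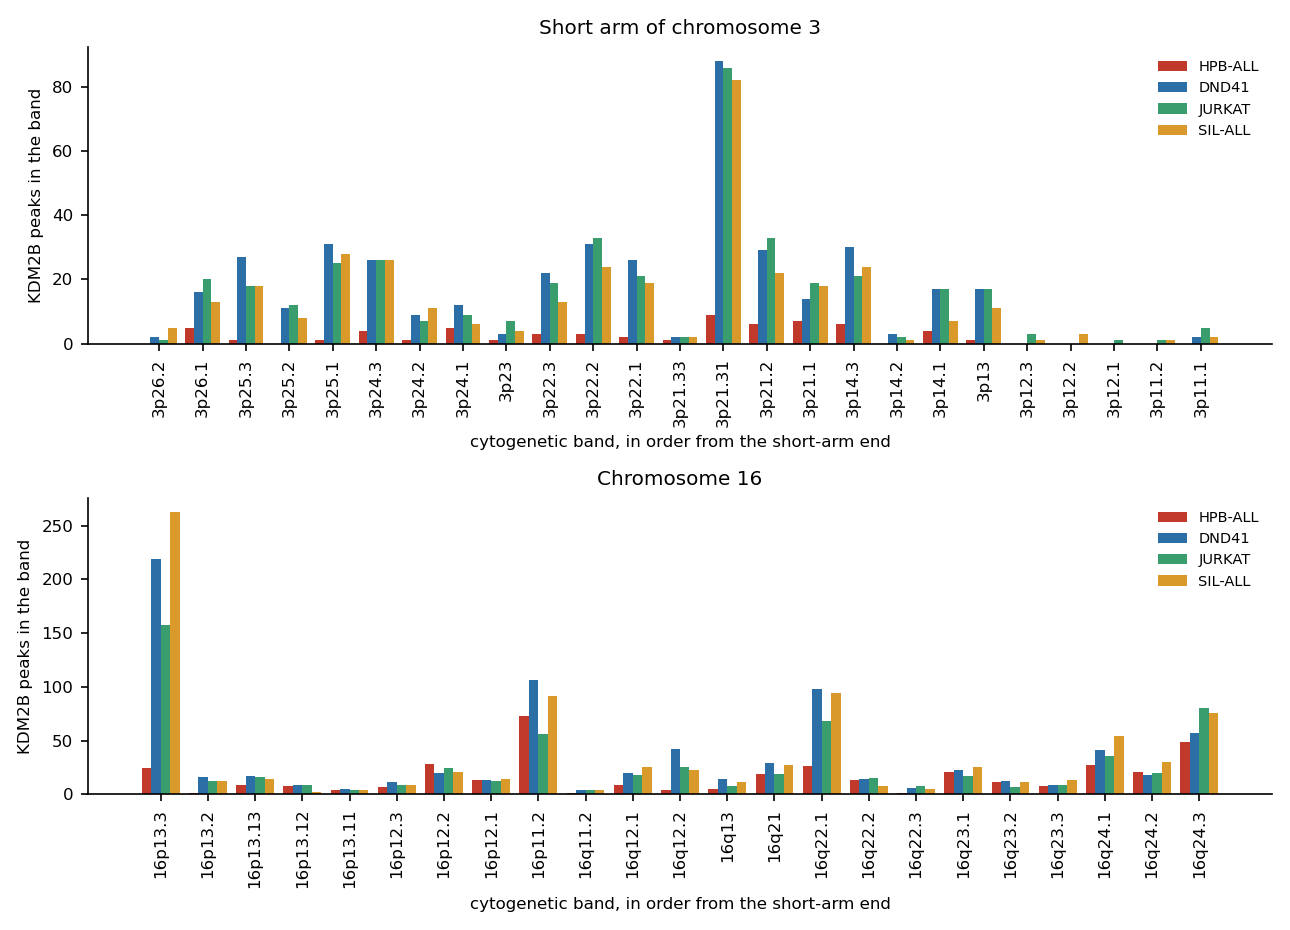
Number of KDM2B peaks (y axis) in each band of 3p and chromosome 16 (x axis, in genome order), 1 bar per T-ALL line. HPB-ALL is under the others along most of 3p and in 16p13.3 (24 peaks against 158 to 263) and meets them in 16p12.2 and 16p11.2.

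The same places stood out when sites bound in the other T-ALL lines were taken as the starting point. DND41, JURKAT and SIL-ALL shared 3833 regions, and HPB-ALL had no peak in 760 of them (19.8%, interval 18.6 to 21.12%). Left out in the same way, DND41 lacked 16.2%, JURKAT 20.5% and SIL-ALL 15.97% of the regions of the other 3, so the total for HPB-ALL was within the range of the T-ALL lines. With 50% reciprocal overlap, counted over DND41 peaks, HPB-ALL lacked 51.4%. By arm, HPB-ALL lacked 76 of 102 regions on 3p (74.5%, 65.3 to 82.0%), 55 of 95 on 16p (57.9%, 47.8 to 67.3%) and 38 of 101 on 16q (37.6%, 28.8 to 47.4%). The next was 19p at 26.9%, the lowest 4q at 5.68%, and the median of 38 arms was 17.3%. On 3p the other lines lacked 3.70% (DND41), 10.3% (JURKAT) and 23.5% (SIL-ALL), although these are shares of fewer regions, since they require an HPB-ALL peak. The 3 arms held 169 of the 760 missing regions, 22.24% of them against 7.77% of the regions examined, and outside them HPB-ALL lacked 591 of 3535 (16.7%, 15.5 to 17.98%). These shares rest on the same peaks as the arm counts and are not independent of them.

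**Figure D4:**
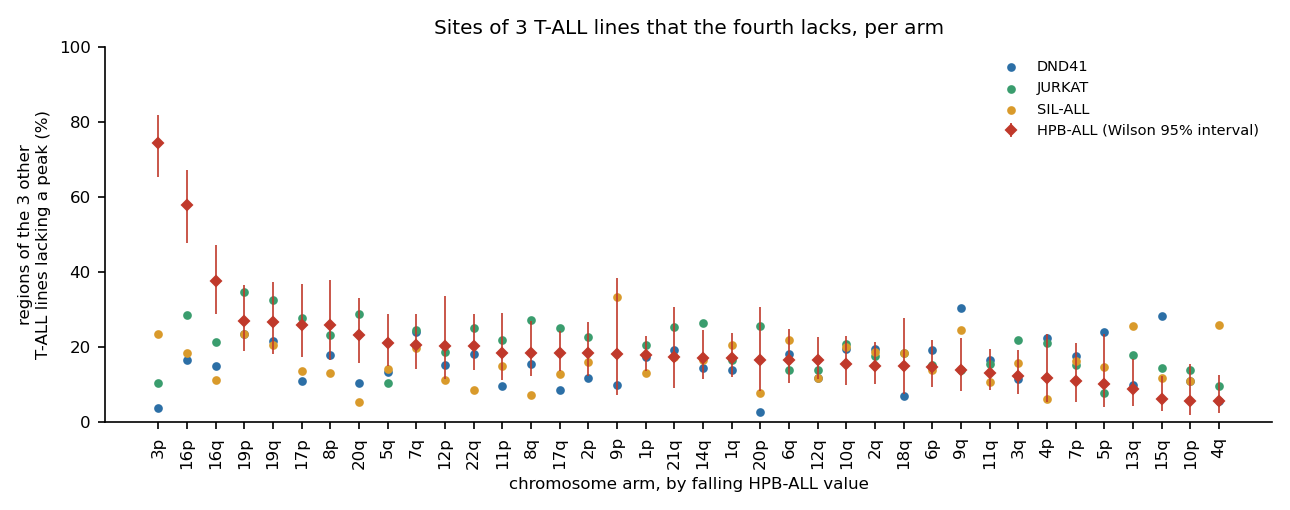
Percent of regions shared by the 3 other T-ALL lines (y axis) in which the fourth line had no peak, by chromosome arm (x axis), 1 point per T-ALL line; for HPB-ALL vertical bars are 95% Wilson intervals for counting error. HPB-ALL lacked 74.5% on 3p and 57.9% on 16p, against a median of 17.3% over 38 arms.

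Many of the regions without HPB-ALL on 3p and 16p stood in unbroken runs, while on 16q the longest run had 7, in 16q22.1. In 16p13.3, 43 of 55 shared regions lacked HPB-ALL (78.2%), in 16p13.2 5 of 5, in 3p25.1 8 of 8, in 3p25.3 5 of 5, and in 3p21.31 19 of 23. The longest run of consecutive regions without HPB-ALL had 19 and ran over 11.9 Mb of 3p (chromosome 3, 5028254 to 16926448), where HPB-ALL had 2 peaks, DND41 77, JURKAT 65 and SIL-ALL 64. The next had 12 in 16p13.3 (chromosome 16, 127979 to 730879; 0 HPB-ALL peaks against 45, 21 and 43) and 11 in 3p21.31 (chromosome 3, 47822647 to 49060132; 0 against 32, 25 and 32). The longest such runs were 5 in DND41, 6 in JURKAT and 5 in SIL-ALL. Runs of those lines were counted over regions that require an HPB-ALL peak. On 3p these were 27 to 34 regions, against 102 for HPB-ALL, so the other lines had less room for a long run there. With every list held to a common lowest score of 80.03 the longest runs were 9 in HPB-ALL, 8 in JURKAT, 5 in DND41 and 4 in SIL-ALL. The distance from JURKAT then nearly closed. That floor takes the raw scores of all lists as being on the same scale, and it left 7406 JURKAT and 12757 HPB-ALL peaks. In the other settings computed for every T-ALL line the distance was wider. The HPB-ALL run was 14 against at most 7 with equal lists and 16 against at most 6 from the median score up. It was 23 against at most 7 with a 500 bp tolerance. Runs and gaps were examined after the values were seen.

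Stretches without HPB-ALL peaks also lay outside 3p and chromosome 16. The longest run of missing regions there had 8, in 17p13.1 (chromosome 17, 7476132 to 8028050; 2 HPB-ALL peaks against 30 in DND41, 22 in JURKAT and 31 in SIL-ALL). Between 7388038 and 7893273 of that band HPB-ALL had no peak, against 22, 16 and 22. At the end of 10q, from 10q26.2 to 10q26.3 (chromosome 10, 129924893 to 135534747), HPB-ALL had no peak over 5.61 Mb, where DND41 had 22, JURKAT 24 and SIL-ALL 28, and K562 7, REH 24 and SUP-B15 19. In 19p13.13, HPB-ALL again had no peak against 12, 4 and 6, and in 2p22.2 none against 9, 3 and 11. A list with no peak in a band gives no read depth there, so an interval for such an absence cannot be given.

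Some of the strongest sites of the other lines were missing from HPB-ALL. The region with the highest mean percentile in the other T-ALL lines lay in 2q13 (chromosome 2, 111874653 to 111880907), the band of BCL2L11, which encodes the pro-apoptotic protein BIM. It stood at percentile 99.6 in DND41, 99.9 in JURKAT and SIL-ALL, and at 98.0, 99.6 and 99.9 in K562, REH and SUP-B15. HPB-ALL had no peak there, and its nearest one was 259 kb away, although its count in the band was 25 against 20, 19 and 19. A second region, in 9q34.11 (chromosome 9, 131938386 to 131940943), was between percentiles 98.8 and 99.7 in all 6 other lists, with the nearest HPB-ALL peak 64.2 kb away. In 17q25.3 (chromosome 17, 79366263 to 79368181) the nearest HPB-ALL peak was 0.964 kb away, in the cluster of 12 peaks named above. The other T-ALL lines also had peaks within that cluster, 6 in DND41, 9 in JURKAT and 4 in SIL-ALL. Regions in 17p13.2 (chromosome 17, 4401363 to 4403689) and 3q27.2 (chromosome 3, 185824668 to 185828287) completed the 5 highest.

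Of 816 regions with a peak in all 6 other lines, HPB-ALL lacked 107 (13.11%). Left out in the same way, DND41 lacked 3.14%, JURKAT 5.72% and SIL-ALL 8.99%. HPB-ALL thus had the highest share of the 4 T-ALL lines in this measure, unlike in the regions of the other T-ALL lines. Its list is also the shortest of these lines (12765 peaks), and this measure was not recomputed with equal lists. The 107 regions lay on many arms but not evenly. On the low arms they were 10 of 28 on 16q, 7 of 22 on 16p and 4 of 13 on 3p, each a share above the 13.11% of all 816. The shares on 9q (8 of 30) and 20q (6 of 20) were also above it, and 1p had 9 of 64. Besides 2q13 and 9q34.11, the highest lay in 8q24.3 (chromosome 8, 142044435 to 142047239), 20q13.33 (chromosome 20, 61272734 to 61275089) and 19p13.2 (chromosome 19, 12900599 to 12903850). In 19p13.2 an HPB-ALL peak lay 0.743 kb away, and in 20q13.33 the nearest was 151 kb away.

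Where HPB-ALL did have a peak beside the other lines, its ranks were similar to theirs over most of the genome. Spearman's rho of the best percentile per shared region, a description across regions with no test, was 0.471 with SIL-ALL (5126 regions), 0.470 with DND41 (5018), 0.417 with JURKAT (4917), 0.287 with SUP-B15 (2738), 0.280 with K562 (2249) and 0.240 with REH (2322). The other pairs of T-ALL lines had values from 0.419 to 0.488. In the 3073 regions of all 4 T-ALL lists, the HPB-ALL percentile minus the mean of the other 3 had a median of 2.65 points (quartiles -10.4 and 14.14). It was 20 points or more above in 537 regions and 20 points or more below in 513.

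**Figure D5:**
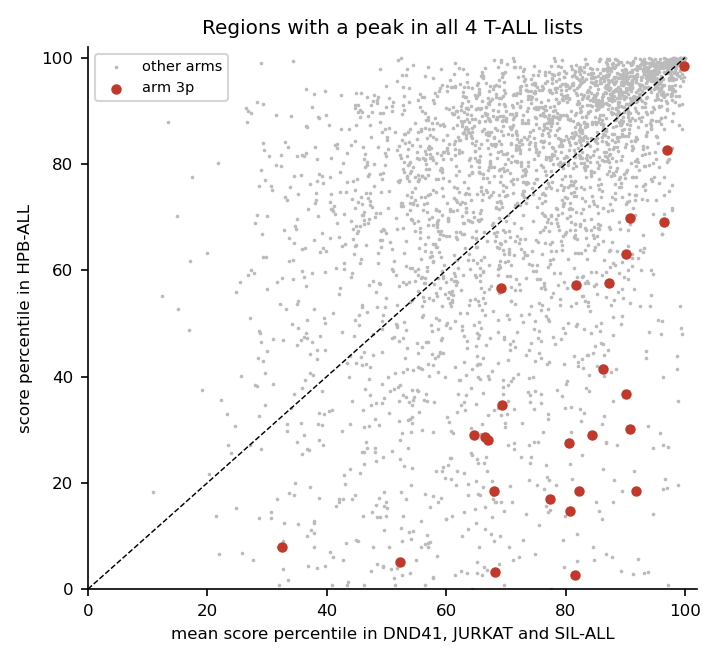
Score percentile in HPB-ALL (y axis) against the mean percentile in DND41, JURKAT and SIL-ALL (x axis) for the 3073 regions of all 4 T-ALL lists, 1 point per region, with regions of 3p in red and a dashed line where both are equal. All 26 regions of 3p lie under the line, with a median difference of -41.8 points.

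On 3p and in 16p13.3 the sites that HPB-ALL did have were also low in its list. All 26 shared regions of 3p ranked lower in HPB-ALL, with a median difference of -41.8 points and medians of 28.9 in HPB-ALL and 81.7 for the mean of the others. The same difference computed for each other line on 3p was 14.4 in DND41, 12.3 in JURKAT and 18.4 in SIL-ALL. The mean used for each of those lines includes the low HPB-ALL percentile, which raises the difference, so these values are not an independent reference. After 3p, the lowest arm median for HPB-ALL was -5.01 on 5p, so 3p stood apart. In 16p13.3 all 12 shared regions ranked lower, with a median difference of -43.4 points. Bands elsewhere came close with fewer regions: 20p12.3 (4 of 5 lower, -43.0 points) and 5q35.3 (5 of 7 lower, -42.4 points). Places were examined after the values were seen, and the regions of a place share one library.

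Near the centromere of chromosome 16 the ranks, but not the share of missing regions, went the other way. In 16p11.2 HPB-ALL lacked 6 of 17 regions shared by the other T-ALL lines (35.3%), against 19.8% of all such regions. The ranks below cover only regions where it had a peak. In 16p11.2, 9 of 11 shared regions ranked higher in HPB-ALL, with a median difference of 44.3 points, a median of 98.5 in HPB-ALL and 53.5 for the mean of the others. JURKAT had a difference of -42.8 points in the same regions. Of the 73 HPB-ALL peaks in the band 21 were in the top decile of the list, against 5 in DND41, 2 in JURKAT and 5 in SIL-ALL. Over a 216 kb stretch (chromosome 16, 30456568 to 30672892), bounded by named regions, HPB-ALL had 16 peaks with a median percentile of 86.7. DND41 had 8 with a median of 27.3, JURKAT 9 with 41.9 and SIL-ALL 15 with 49.3, and K562 had 1, REH 5 and SUP-B15 2. The stretch was bounded by regions named for their high HPB-ALL percentiles, so its higher HPB-ALL median is a description and supports nothing.

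After 16p11.2, the bands with the largest median differences were 3q27.3 (7 of 7 regions higher, 30.7 points) and 9q22.33 (5 of 5, 25.8 points). Next came 1q21.1 (4 of 5, 24.6 points), 4q24 (5 of 5, 22.5 points) and 16q21 (5 of 5, 21.8 points). Further down were 6q27 (8 of 8, 19.4 points) and 16p12.2 (6 of 6, 17.9 points), among others. Among single regions, the difference was largest in 1q42.13 (chromosome 1, 229761871 to 229762669), at percentile 87.9 in HPB-ALL and a mean of 13.4 in the others. The next were 2 regions of the 16p11.2 stretch (chromosome 16, 30537148 to 30539194, and 30661678 to 30663455), at percentiles 99.1 and 99.4 in HPB-ALL against means of 29.1 and 34.34. Regions in 19p13.3 (chromosome 19, 925844 to 926997) and 16q22.1 (chromosome 16, 66914515 to 66915335) followed.

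At the other extreme, a region in 10q25.2 (chromosome 10, 111967195 to 111969748), the band of the MYC antagonist MXI1, was at percentile 0.705 in HPB-ALL and 97.8 in DND41, 99.1 in JURKAT and 94.6 in SIL-ALL. HPB-ALL thus had a peak there near its lowest score. Regions in 6q22.31 (chromosome 6, 119215189 to 119216197), 20q11.22 (chromosome 20, 32250915 to 32252276), 17q25.3 (chromosome 17, 79318841 to 79320813) and 16p13.3 (chromosome 16, 764733 to 766458) were at percentiles 3.21, 3.11, 2.80 and 5.64 in HPB-ALL and at means of 93.8, 93.1, 91.2 and 92.2 in the other T-ALL lines.

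Among bands with more HPB-ALL peaks, 9p21.3 had the largest ratio. It held 17 HPB-ALL peaks against 3 in DND41, 8 in JURKAT and 4 in SIL-ALL (K562 0, REH 1, SUP-B15 3), a ratio of 5.10 to the median share of the other T-ALL lines. The band holds CDKN2A, the cell cycle inhibitor locus often deleted in T-ALL, but no peak is assigned to that gene. Of the 17 peaks, 7 were in no other list. The highest (chromosome 9, 20620694 to 20622232) stood at percentile 98.8. Several others lay side by side with it, up to position 20623936, so the 17 peaks are not 17 separate sites. Other bands of this kind were 2p23.1 (8 peaks against 10, 2 and 1, where DND41 had more than HPB-ALL), 3q25.2 (14 against 8, 4 and 4), 6q14.1 (25 against 8, 10 and 19) and 4q32.3 (12 against 5, 6 and 4). Counts this small move a ratio by much, and the other T-ALL lines also had bands far from their own median: 99 lower and 53 higher in DND41, 66 and 92 in JURKAT, and 96 and 52 in SIL-ALL.

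Bands of T-cell genes held similar numbers of peaks in HPB-ALL and the other T-ALL lines. None of the 6 bands listed for the T-cell receptor, CD3, CD4 and CD8 genes was past 1.5-fold in either direction, and they held 242 HPB-ALL peaks against 251 in DND41, 252 in JURKAT and 230 in SIL-ALL. Of 9 bands of T-lineage factors, 1 of which (7p12.2, IKZF1) had too few peaks to assess, 2 were higher, 4q25 of LEF1 (34 against 25, 33 and 27) and 21q22.12 of RUNX1 (17 against 10, 21 and 10), and 1 was lower, the 3p24.3 of SATB1 given above. In neither of the higher bands did HPB-ALL stand clear of JURKAT. In 14q32.2, the band of the T-lineage factor BCL11B, the count was 26 against 54, 33 and 44, a ratio of 0.71 that was not past the limit.

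Of 8 bands of T-ALL driver genes, 1 of which (14q13.3, NKX2-1) had too few peaks, 2 were higher, 9p21.3 and the 6q23.3 of the oncogene MYB (20 against 10, 16 and 10), and none was lower. In 5q35.1, the band of TLX3, HPB-ALL had 16 peaks and DND41 36, with 22 in JURKAT and 24 in SIL-ALL. The lines known for an abnormal TLX3 locus were thus the lowest and the highest of the T-ALL lines in that band. Of 4 HOX bands 1 was higher, the 7p15.2 of the HOXA cluster (13 against 9, 12 and 8).

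Bands of genes of other blood lineages held HPB-ALL peaks as well. Of 3 B-lineage bands 1 was higher, the 9p13.2 of PAX5 (25 against 16, 13 and 14), which lies on 9p, the arm with more HPB-ALL peaks, and 5q33.3 of EBF1 was just under the limit (18 against 22, 14 and 12, a ratio of 1.49). Of 4 myeloid and erythroid bands 1 was higher, the 9q34.13 of GFI1B (30 against 15, 35 and 22). Of the 5 bands of PRC1.1 genes, 12q24.31 of KDM2B itself held 107 peaks against 123 in DND41, 112 in JURKAT and 120 in SIL-ALL, Xp11.4 of BCOR was higher (30 against 19, 11 and 38) and 16p13.2 of USP7 was lower, as given above. Each list's share of higher or lower bands is read against the 17.5% and 11.6% of all bands, and with 3 to 9 bands a list no list is said to differ from that background.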

How the data were processed

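KDM2B ChIP-seq peak lists of 7 leukaemia lines were used, 1 list per line, and of these the HPB-ALL list is described. Per the submitters' processing notes, FastQC 0.10.1, Bowtie 1.1.1 and the build hg19 were used. Peak names in the files follow the MACS pattern; the sources used here give no version, control sample or threshold for it. Input libraries are labelled for 5 lines, HPB-ALL and SIL-ALL among them, and were not used here. No input is labelled for DND41 or JURKAT, which are among the T-ALL lists that HPB-ALL was set against. Whether this difference moved the peak counts was not tested. The score of each peak is the authors' own value, as deposited, with no unit stated. Depth is unknown.

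Positions were written counting from 1. Peaks overlapped when they shared at least 1 bp, and overlapping peaks of all lists were merged into regions, each taking the best percentile of a line. Bands came from the hg19 table of circlize 0.4.16, by midpoint. Gene names are background on a band; genes and sequence of that build were not used here. Arms and bands were assessed with 20 or more peaks in the 4 T-ALL lists together and called past 1.5-fold from the median of the 3 other T-ALL lists. Named regions were the highest 5 or 3 by percentile in each sharing class and the 5 largest percentile differences in each direction. The members, loci and arms were chosen with earlier results of these data known. Intervals are Wilson 95% intervals. Alternatives were equal lists of the top 5942 peaks, a common score floor, each list's peaks at or above its median score, a 500 bp tolerance, 50% reciprocal overlap and each other T-ALL line left out; those of the missing share on 3p, the longest run and the percentile difference were added after seeing the data. The counting was tested on simulated lists. Python 3.11.15, numpy 2.4.6, pandas 2.3.3, scipy 1.17.1 and matplotlib 3.10.9 were used.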

Additional observations from a re-analysis of the deposited data

Results flagged for a closer look

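The longest run of consecutive regions shared by the other T-ALL lines but without a peak of the line itself was 19 in HPB-ALL, against 5 in DND41, 6 in JURKAT and 5 in SIL-ALL. Its gap to the nearest of the others, as a share of the whole range, was above Dixon's 95% critical value for 4 samples. The runs of the other lines were counted only over regions with an HPB-ALL peak, so the 4 values were not measured on equal terms. Runs were also examined after the values were seen. HPB-ALL was the highest or lowest line in 56 of 131 values examined, and in 1 of these, this one, its gap was above the critical value. Gaps of the other lines were not assessed. The measure marks about 1 in 20 groups by chance when any line of a group may be the extreme one. Only HPB-ALL was assessed here, so the rate for these values is lower. It is a mark for a closer look, not a test between lines. With the common score floor the run was 9 against 8 in JURKAT. With equal lists it was 14 against at most 7 in another T-ALL line.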

How the results depend on the processing

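Of 142 recomputed values other than those of single named regions, 77 stayed within their limits and 65 moved. Of 160 for named regions, 113 stayed and 47 moved. Only the median percentile difference on 3p could be marked as reversed, and it kept its sign in every setting where it was computed. The calls of 3p and 16p as lower and 9p as higher held under every setting run for arms, and that of 16q was lost with equal lists, the common floor, the median score and merging within 500 bp, and without DND41 or SIL-ALL.

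With equal lists, overlap of HPB-ALL peaks was 50.4% (DND41), 45.0% (JURKAT), 52.2% (SIL-ALL), 36.3% (K562), 25.8% (REH), 36.8% (SUP-B15) and 24.0% (all 3 other T-ALL lists); 3p held 0.168% of the list, 344 regions lacked HPB-ALL, 82.9% of those on 3p did, and the median width was 401.5 bp. With the common floor the overlaps were 44.9% (DND41), 34.8% (JURKAT), 18.3% (K562), 9.81% (REH), 18.2% (SUP-B15) and 19.8% (all 3), with 25.8% in no other list, 394 regions lacking HPB-ALL (15.8%) and a longest run of 9. At or above the median score they were 48.8% (JURKAT), 56.6% (SIL-ALL), 23.9% (K562), 19.6% (REH), 27.5% (SUP-B15) and 27.7% (all 3); 3p held 0.172%, 461 regions lacked HPB-ALL (22.7%; 83.7% on 3p), and the median width was 385 bp. With a 500 bp tolerance they were 69.7% (DND41), 67.8% (JURKAT), 69.7% (SIL-ALL), 33.8% (K562), 33.6% (REH), 41.2% (SUP-B15) and 47.2% (all 3), with 9.61% in no other list, 17.5% of regions lacking HPB-ALL, 1.55% of the list on 16p and a median width of 406 bp. With 50% reciprocal overlap they were 23.298% (DND41), 23.9% (JURKAT), 24.6% (SIL-ALL), 8.69% (K562), 7.09% (REH), 11.35% (SUP-B15) and 4.22% (all 3), with 43.9% in no other list; counted over DND41 peaks, 51.4% lacked HPB-ALL (96.7% on 3p), and no run or percentile was computed. The stricter or looser matching and the shorter lists change these shares by construction. Leaving out 1 other T-ALL line gave 1364 to 1597 regions lacking HPB-ALL (27.2 to 30.3%), 78.3 to 80% on 3p, a longest run of 23 to 27 and 3 to 5 arms past 1.5-fold.

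No paired analysis was possible because every list is a different line, with no replicate number in common beyond 1. Depth is unknown, so a peak missing from HPB-ALL was not detected in its list, which does not show that KDM2B was absent there.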
